A study of Mus musculus with 44 samples.

Results

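Heat shock proteins and the chaperones that work with them were followed in microglia and monocytes from the injured mouse spinal cord and in cultured macrophages and microglia under the cytokine TGFb1. The set held 10 genes, chosen by symbol: Hsp90ab1, Hsp90aa1, Hspa8, Hspa5, Hspa1a, Hspa1b, Hsph1, Dnajb1, Hspd1 and Hspe1. Of these, 7 had a row among the 8218 genes of the in vivo table (Hspa1a, Hspa1b and Hsph1 had none) and 9 among the 12335 genes of the culture table (Hspa1b had none). All of the rows present were tested, and no filter on low values removed any.

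Chaperones bind unfolded or partly folded proteins and help them reach or keep their shape. In the cytosol, the HSP70 proteins bind short stretches of a client, a J protein such as DNAJB1 delivers the client and triggers ATP hydrolysis, an HSP110 protein such as HSPH1 exchanges the nucleotide, and HSP90 completes the maturation of kinases and steroid receptors. HSPA5 does the work of HSP70 inside the endoplasmic reticulum and restrains the sensors of the unfolded protein response, while HSPD1 and its lid HSPE1 form the folding chamber of mitochondria. Some of these genes are made all the time (Hspa8, Hsp90ab1) and others are induced by heat shock factor 1 (Hspa1a, Hspa1b, Dnajb1, Hsph1) or by misfolded protein in the endoplasmic reticulum (Hspa5).

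The series measured RNA of 44 libraries from C57BL/6 mice. In vivo, cells were sorted from the spinal cord of mice given a laminectomy at T12 and a contusion of 200 kdyn: microglia, the resident macrophages, at time 0 (3 libraries) and at 1 h, 16 h, day 1, day 3 and day 7 (2 each), and monocytes at 16 h, day 1, day 3 and day 7 (2 each). In culture, bone marrow cells grown into macrophages in M-CSF (11 libraries) and microglia drawn from primary glial cultures of newborn mice (12 libraries) were taken at 0, 1, 3, 6, 16 and 20 h of TGFb1 at 100 ng/ml, in 2 libraries each but for 1 of macrophages at 6 h. The titles of the cultures put "pre" before the hour, which the labels do not explain, and the hour that a separate label gives as following TGFb1 was used. The labels describe the time 0 mice as injured like all the others and name no sorting gate, and no culture without TGFb1 at a later time was analysed here, so time in culture and the cytokine cannot be told apart. Whether replicates are separate animals or separate cultures is given nowhere in the labels. Every p-value therefore covers the spread between these libraries alone, which may be technical.

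Depth differed between the sets. The estimated reads per library were 31459 to 187973 in the in vivo microglia, 133911 to 731692 in the monocytes, 1172368 to 1881002 in the cultured macrophages and 1746624 to 2249291 in the cultured microglia. A value of exactly 1 stands where no read was counted, which was the case for 20.1 to 54.2% of genes in the in vivo microglia and for 1.39 to 1.78% in the cultured microglia. Marker lists bore out the labels only in part. The libraries labelled as in vivo microglia carried 4.38 to 22.8% of their total signal in neutrophil markers (11 of 11 measured, none at the no-read value in any library), against 0.104 to 0.535% in the monocytes, and 0.320 to 1.51% in 10 measured microglia markers. Monocyte markers (9 of 10 measured) held 0.547 to 1.62% in these libraries and 1.72 to 3.33% in the monocytes. In culture, 11 measured microglia markers held 1.22 to 1.58% of the signal of the microglia and 0.535 to 0.727% of that of the macrophages, and 8 measured monocyte markers held 1.84 to 2.12% and 1.81 to 2.44%. All values below are the deposited signal of a library, with those of the heat shock genes given in the order of the replicate numbers, and all log2 changes are on the scale of log2(value + 1) from limma, with a call at an adjusted p under 0.05 (Benjamini-Hochberg over all genes of a comparison).

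Some regulatory sequences are shown because the results turn on the genes beside them. The promoters printed are the 250 bases before the RefSeq start on build GRCm38.p6, on the gene's strand, 5′ to 3′. Promoter sequences were available for 7 of the 10 genes, and those of Hspa5 and Hspd1 are printed. The Hspa5 promoter (chr2:34771840-34772089, plus strand) has in capitals a match to the ER stress response element (CCAAT, 9 bases of any kind, CCACG), through which ATF6 and XBP1 are known to raise this gene. The Hspd1 promoter (chr1:55087933-55088182, minus strand) has in capitals a run of alternating heat shock units, in which 2 overlapping matches to the 3-unit heat shock element lie.
Hspa5: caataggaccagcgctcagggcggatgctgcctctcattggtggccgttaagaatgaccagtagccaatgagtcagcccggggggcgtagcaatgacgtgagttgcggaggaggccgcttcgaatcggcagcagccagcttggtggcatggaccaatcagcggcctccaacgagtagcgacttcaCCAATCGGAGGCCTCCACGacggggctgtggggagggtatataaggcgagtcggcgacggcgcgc
Hspd1: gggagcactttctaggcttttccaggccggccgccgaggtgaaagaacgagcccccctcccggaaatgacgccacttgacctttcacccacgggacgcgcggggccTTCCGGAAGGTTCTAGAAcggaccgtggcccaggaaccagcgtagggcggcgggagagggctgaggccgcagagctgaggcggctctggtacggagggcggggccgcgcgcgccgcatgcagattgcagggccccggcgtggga

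The ER stress response element was searched on both strands of all promoter windows (250 bases before to 50 after the start) and was found in 39 of 32851, or 0.119%. Of the 7 heat shock genes with a window, Hspa5 alone held it, and 7 of the 22 other genes of endoplasmic reticulum folding and stress that have a window did. The 3-unit heat shock element (GAA and TTC in alternation, 3 units with 2 bases of any kind between neighbours, both strands) was in 198 of the 32851 windows, or 0.603%, and in those of Hsph1, Hspd1 and Hspe1. Hspd1 and Hspe1 are transcribed in opposite directions from the same stretch. The window of Hspd1 shown above overlaps that of Hspe1 over 285 bases, so that both hold the same heat shock units read from either strand. RefSeq gives Hspd1 another window farther upstream, which holds no 3-unit heat shock element. A match describes the letters only, and whether a factor binds there was not measured.

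In cultured macrophages, the heat shock genes moved in both directions under TGFb1, and none was called at 1 h. The endoplasmic reticulum chaperone HSPA5 fell at 3 and 6 h and was back at its starting level by 16 h. Of the mitochondrial pair, HSPE1 fell at 6 and 20 h and HSPD1 at 16 and 20 h, both with their lowest mean at 20 h. The cytosolic members split: HSPH1 rose at 3 and 6 h, DNAJB1 fell at 3 h, HSP90AA1 fell at 6 and 20 h, and HSP90AB1 passed the test at no time. Of the 9 genes, 0 were called at 1 h, 4 at 3 h (1 higher, 3 lower), 4 at 6 h (1 higher, 3 lower), 3 at 16 h (1 higher, 2 lower) and 3 at 20 h (all lower). The background over all genes in the same comparisons was 3.01, 10.8, 11.5, 9.3 and 11.9%. By direction, 5.96, 5.24 and 4.9% of all genes were called higher at 3, 6 and 16 h, and 4.82, 6.22, 4.39 and 5.89% lower at 3, 6, 16 and 20 h. When all libraries were scaled to the same total, 45.0% of the calls over all genes at 3 h were increases, in place of 55.3%. At 1 h none of the 9 genes had an unadjusted p under 0.05. The standard error of a change at 3 h ranged from 0.05 for HSPA8 to 0.61 for HSPA1A, where the median over all genes was 0.30.

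In cultured microglia, 4 of the 45 gene-by-time tests were called and all were increases: HSPA5 at 6, 16 and 20 h and HSPA8 at 16 h. By time, 0, 0, 1, 2 and 1 of 9 genes were called at 1, 3, 6, 16 and 20 h, where the background over all genes was 0.34, 0.673, 1.23, 1.84 and 2.19%. The share of all genes called higher was 0.519, 0.835 and 1.05% at 6, 16 and 20 h. At 1 and 3 h, 1 and 3 of the 9 genes had an unadjusted p under 0.05 in limma. HSPD1, HSPE1, HSP90AB1, HSP90AA1, HSPH1, DNAJB1 and HSPA1A were called at no time in these cells.

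**Figure D1:**
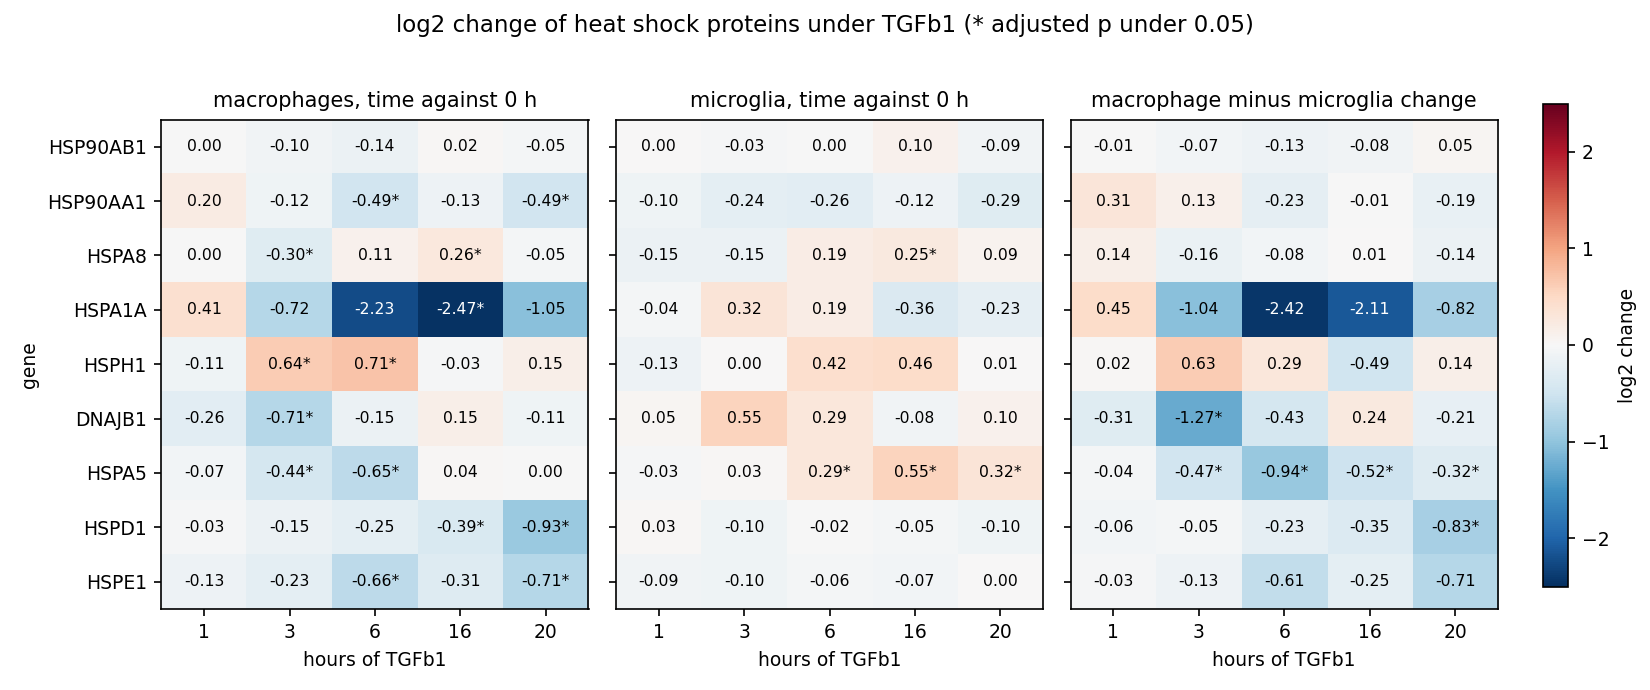
Each cell gives the log2 change of a heat shock gene (rows) at a time of TGFb1 in hours (columns), for macrophages, for microglia and for the macrophage change minus the microglia change; colour runs from blue (lower) to red (higher) and an asterisk marks an adjusted p under 0.05. HSPA5 is lower in macrophages at 3 and 6 h and higher in microglia from 6 h, and HSPD1 and HSPE1 are lower at 20 h in macrophages.

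HSPA5, also called BiP, had values of 2554 and 2560 in the macrophages at 0 h, 2478 and 2387 at 1 h, 1738 and 2039 at 3 h, 1630 in the library at 6 h, 2641 and 2605 at 16 h and 2603 and 2501 at 20 h. Every library at 3 and 6 h lay below every macrophage library of the other times. The log2 change was -0.44 (SE 0.06, adjusted p = 6.75e-05, limma) at 3 h and -0.65 (SE 0.08, adjusted p = 9.14e-06, limma) at 6 h, a level 1.57-fold lower, and 0.04 and 0.00 at 16 and 20 h. Both decreases were still called with any library of 0 or 3 h left out, while that of 6 h stands alone.

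In the microglia HSPA5 had values of 1428 and 1501 at 0 h, 1396 and 1472 at 1 h, 1505 and 1480 at 3 h, 1684 and 1908 at 6 h, 2147 and 2151 at 16 h and 1776 and 1880 at 20 h. All libraries from 6 h on lay above all earlier ones. The change was 0.29 (SE 0.06, adjusted p = 0.0208, limma) at 6 h, 0.55 (SE 0.06, adjusted p = 2.29e-05) at 16 h and 0.32 (SE 0.06, adjusted p = 0.00701) at 20 h. The call at 16 h held without any of the libraries. That at 6 h was lost without 0 h replicate 1 (adjusted p = 0.225), 0 h replicate 2 (0.0812) or 6 h replicate 2 (0.374), and that at 20 h without 0 h replicate 1 (0.107) or 20 h replicate 2 (0.127).

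The difference between the cell types was tested directly. The macrophage change of HSPA5 minus the microglia change was -0.47 (SE 0.09, adjusted p = 0.00358, limma) at 3 h, -0.94 (SE 0.10, adjusted p = 8.03e-06) at 6 h, -0.52 (SE 0.09, adjusted p = 0.00164) at 16 h and -0.32 (SE 0.09, adjusted p = 0.0487) at 20 h. The differences at 3 and 16 h held without any of the libraries in turn, and that at 20 h was lost without any of the 8. That at 6 h held without any of the 6 libraries that could be left out. Its only macrophage library of 6 h could not be. That at 3 h was lost without the variance trend (adjusted p = 0.191) or with only the groups compared in the fit (0.0514), and that at 16 h without the trend (0.162) or after quantile normalization (-0.34, adjusted p = 0.0634). Of 45 such tests over the set, 6 were called, all negative; by time, 0, 2, 1, 1 and 2 of 9 genes were called against a background of 0.608, 3.24, 4.74, 2.95 and 3.71% of all genes, of which the negative calls were 1.18, 2.3, 1.18 and 1.77% of all genes at 3, 6, 16 and 20 h. Scaled to the same total, positive differences were 51.9, 71.5 and 69.2% of the calls over all genes at 3, 16 and 20 h, in place of 63.8, 60.2 and 52.4%. The macrophages also started from a higher level: at 0 h HSPA5 was 1.75-fold higher than in the microglia (log2 0.80, SE 0.06, adjusted p = 1.78e-09), in a comparison where 51.1% of all genes were called (21.5% of all genes as higher) and the median log2 difference of all genes was -0.13.

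**Figure D2:**
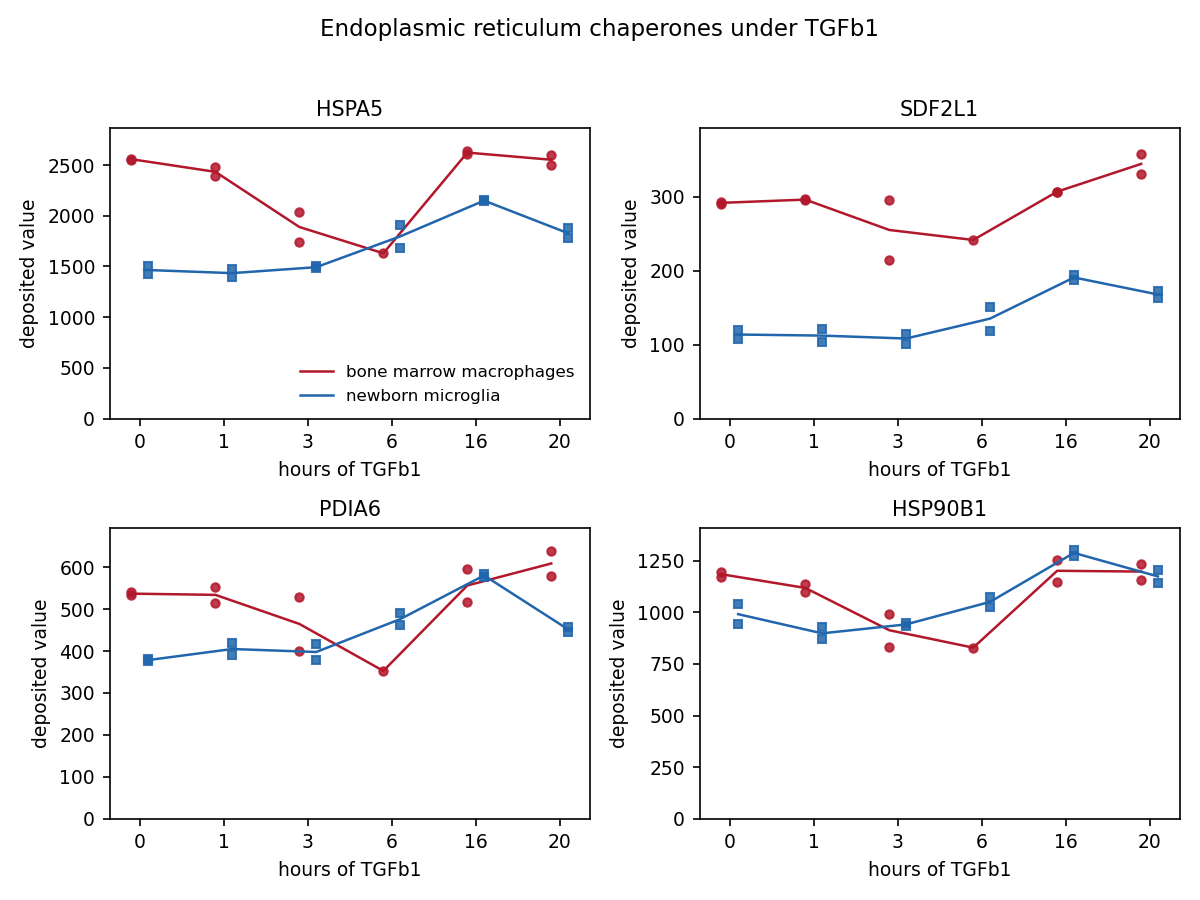
Deposited values (linear, from 0) of HSPA5 and of the endoplasmic reticulum genes SDF2L1, PDIA6 and HSP90B1 by hours of TGFb1, with a point per library and a line through the means; circles are macrophages and squares are microglia. HSPA5 dips to 1630 in the macrophages at 6 h and reaches 2147 and 2151 in the microglia at 16 h.

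Other genes of protein folding and stress in the endoplasmic reticulum were read from a list of 25, all measured in culture. In the macrophages 0 rose and 6 fell at 3 h, 1 rose and 5 fell at 6 h, and 4 rose and 3 fell at 16 h and again at 20 h. Of all genes, 5.96, 5.24 and 4.9% were called higher at 3, 6 and 16 h. The share called lower was 4.82, 6.22, 4.39 and 5.89% at 3, 6, 16 and 20 h, and 11.9% were called in either direction at 20 h. At 3 h the list's median log2 change was -0.17, against 0.00 for all genes. HSP90B1, the HSP90 of this compartment, changed by -0.38 (SE 0.07) at 3 h and -0.51 (SE 0.09) at 6 h, and PDIA6, a disulfide isomerase, by -0.60 (SE 0.13) at 6 h. Transcription factors of the stress response were lower late as well: ATF4 changed by -0.62, -0.66 and -0.71 (SE 0.05 each) at 3, 16 and 20 h, and DDIT3 by -0.62, -0.99, -0.999 and -0.92 at 3, 6, 16 and 20 h. HERPUD1, which serves degradation of misfolded proteins, fell by 0.68 at 3 h and rose by 0.77 at 16 h.

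In the microglia 8 of the 25 rose and 0 fell at 16 h, with a list median of 0.24 against 0.01 for all genes, and 4 rose and 0 fell at 20 h. Of all genes, 0.835 and 1.05% were called higher at these times. The largest increases at 16 h were those of SDF2L1, a cofactor of HSPA5 (0.74, SE 0.14, adjusted p = 0.00493, limma), HYOU1, the HSP110 of this compartment (0.65, SE 0.14, adjusted p = 0.0197), and PDIA6 (0.61, SE 0.10, adjusted p = 0.00174). At 20 h CALR, the lectin chaperone calreticulin, was up by 0.46 (SE 0.04, adjusted p = 2.01e-06). Over the 23 culture libraries, the genes most like HSPA5 were SDF2L1 (Pearson r = 0.902), PDIA6 (0.883) and 1810011H11RIK (0.878), among 10371 genes with a mean of at least 10 whose median r was -0.108. The 2 cell types differ in level, which these correlations share.

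The windows of Sdf2l1, Herpud1, Atf4 and Ddit3, which are named above as changed, hold no match to the ER stress response element. The element of Hspa5 and those of genes named above that hold it are set side by side. They are on the strand of the motif, with the fixed letters in capitals. They lie at chr2:34772025-34772043 (Hspa5), chr10:86705638-86705656 and chr10:86705533-86705551 (Hsp90b1), chr12:17266491-17266509 (Pdia6) and chr8:84847075-84847093 (Calr) of GRCm38.p6, all in the 250 bases before the start.
Hspa5: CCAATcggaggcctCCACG
Hsp90b1, site farther from the start: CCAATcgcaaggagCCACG
Hsp90b1, nearer site: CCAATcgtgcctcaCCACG
Pdia6: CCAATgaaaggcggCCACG
Calr: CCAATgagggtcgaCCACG
These genes did not all move alike in macrophages, where CALR, at 4844 ± 99.5 (SD, n = 2) at 0 h, was lower by 0.33 at 16 h (SE 0.04, adjusted p = 2.53e-05, limma) while HSPA5 was back at its level of 0 h.

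HSPD1, the mitochondrial HSP60, had values of 237.9 and 227.9 in the macrophages at 0 h, 224.1 and 232.0 at 1 h, 194.3 and 227.6 at 3 h, 196.0 at 6 h, 167.0 and 188.4 at 16 h and 120.6 and 122.4 at 20 h. The libraries of 20 h lay below all others. The change was -0.39 (SE 0.10, adjusted p = 0.019, limma) at 16 h and -0.93 (SE 0.10, adjusted p = 2.03e-06) at 20 h, a level 1.91-fold lower. The call at 20 h held without any of its libraries, and that at 16 h was lost without 0 h replicate 1 (adjusted p = 0.104), 0 h replicate 2 (0.0547) or 16 h replicate 1 (0.165). In the microglia HSPD1 ran from 210.3 to 247.8 over all 12 libraries, with changes of -0.10 to 0.03. The difference between the cell types at 20 h was -0.83 (SE 0.15, adjusted p = 0.00171), and it held without any of the libraries.

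HSPE1, the lid of the chamber, had values of 205.3 and 183.6 in the macrophages at 0 h, 197.4 and 159.9 at 1 h, 165.1 and 164.7 at 3 h, 122.3 at 6 h, 178.4 and 136.7 at 16 h and 133.6 and 104.6 at 20 h. The libraries of 6 and 20 h lay below those of all other times. The change was -0.66 (SE 0.18, adjusted p = 0.0223, limma) at 6 h and -0.71 (SE 0.15, adjusted p = 0.00279) at 20 h. The call at 6 h was lost without 0 h replicate 1 (adjusted p = 0.097), and that at 20 h without 20 h replicate 2 (0.0569). In the microglia HSPE1 ran from 172.8 to 219.7, and the difference between the cell types at 20 h was -0.71 (SE 0.21) but did not pass the test (adjusted p = 0.0703). Over the 11 macrophage libraries HSPD1 and HSPE1, which share their promoter, had a Pearson r of 0.714, and over the 12 microglia libraries one of -0.153.

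The other mitochondrial chaperones and proteases (10 genes, all measured) had 0 higher and 3 lower in macrophages at 20 h, and none in microglia at any time. Of all genes, 5.89% were called lower in macrophages at 20 h. The 3 were HTRA2, a protease (-1.21, SE 0.13), HSPA9, the mitochondrial HSP70 (-0.85, SE 0.09, adjusted p = 2e-06, limma), and GRPEL1, its nucleotide exchange factor (-0.59, SE 0.12, adjusted p = 0.00169). HSPA9 went from 426.1 ± 50.8 (SD, n = 2) at 0 h to 235.0 ± 16.6 at 20 h. The changes of HTRA2, HSPA9 and GRPEL1 at 20 h were each more negative in macrophages than in microglia, by 1.01, 0.66 and 0.81 (adjusted p = 0.00279, 0.00568 and 0.00709). The list's median change at 20 h was -0.08, against 0.00 for all genes, so most of its genes did not move with these.

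**Figure D3:**
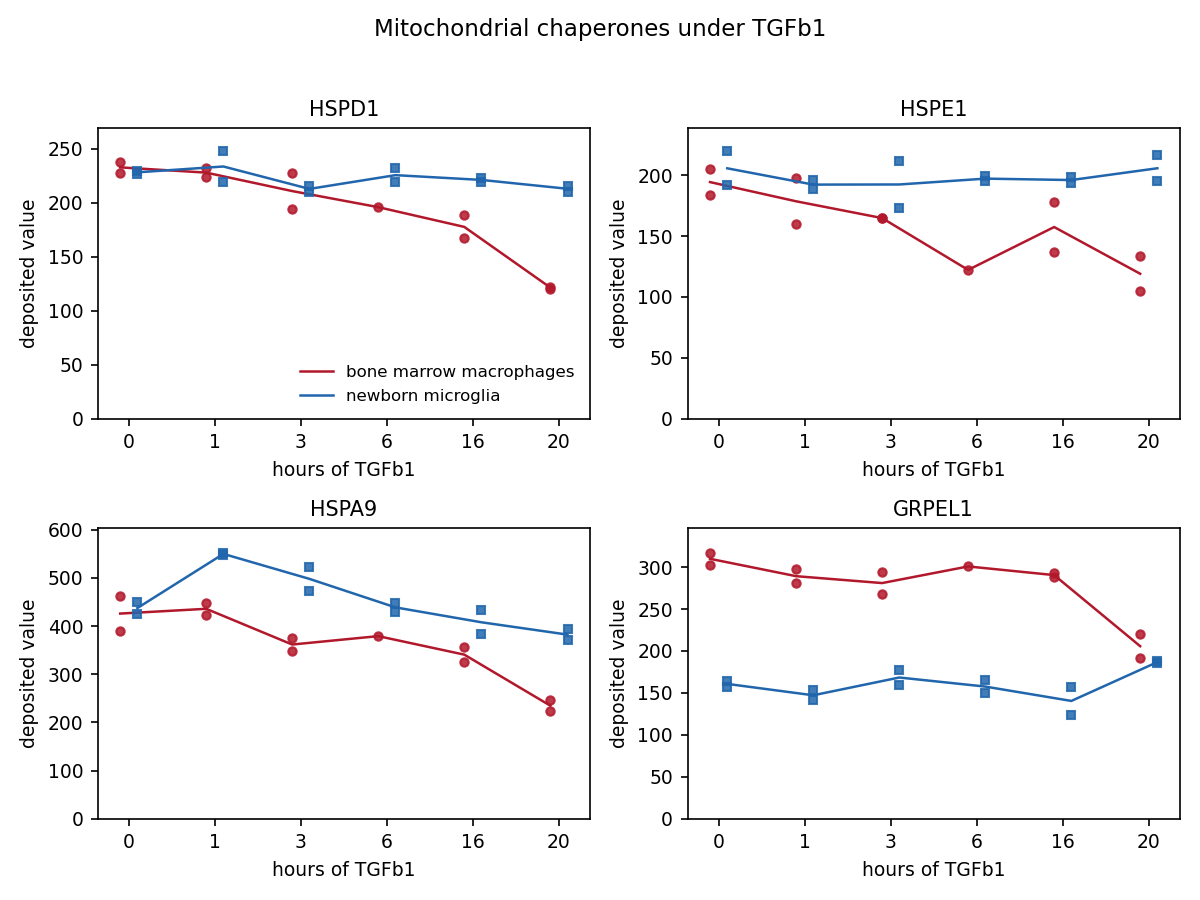
Deposited values (linear, from 0) of the mitochondrial chaperones HSPD1, HSPE1, HSPA9 and GRPEL1 by hours of TGFb1, with a point per library and a line through the means; circles are macrophages and squares are microglia. HSPD1 is at 120.6 and 122.4 in the macrophages at 20 h and between 210.3 and 247.8 in all microglia libraries.

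HSP90AB1, the constitutive cytosolic HSP90, lay between 1333 and 1544 in the macrophages and between 1347 and 1651 in the microglia. None of its 10 changes passed the test; they ran from -0.14 to 0.10, each with an SE of 0.06 to 0.08. After quantile normalization its change in macrophages at 3 h was called (-0.20, adjusted p = 0.0398, limma). HSP90AA1, the inducible form, had values of 464.1 and 457.3 in the macrophages at 0 h, 519.2 and 541.6 at 1 h, 417.3 and 433.5 at 3 h, 328.8 at 6 h, 412.9 and 426.9 at 16 h and 348.5 and 310.4 at 20 h. The libraries of 6 and 20 h were the lowest. The change was -0.49 (SE 0.14, adjusted p = 0.0269, limma) at 6 h and -0.49 (SE 0.11, adjusted p = 0.00654) at 20 h. The first was lost without 0 h replicate 1 (adjusted p = 0.0751) or replicate 2 (0.061) and the second without 20 h replicate 2 (0.0738). The changes of HSP90AA1 in microglia were -0.29 to -0.10, none called, and its difference between the cell types was called at no time.

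Of 13 co-chaperones of HSP90, 3, 2, 2 and 2 were called in macrophages at 3, 6, 16 and 20 h, where 10.8, 11.5, 9.3 and 11.9% of all genes were. AHSA1, which stimulates the ATPase of HSP90, changed in macrophages by -0.68 (SE 0.10), -1.70 (SE 0.12), -1.10 (SE 0.10) and -1.55 (SE 0.10) at 3, 6, 16 and 20 h, from 905.7 ± 9.52 (SD, n = 2) at 0 h to 309.4 ± 10.1 at 20 h. FKBP5, an immunophilin of steroid receptor complexes, changed by 1.55 (SE 0.21), 1.64 (SE 0.25), 1.56 (SE 0.21) and 1.21 (SE 0.21) at the same times. CACYBP was the only other one called from 3 h on, at 3 h (-0.39, adjusted p = 0.0499, limma). In microglia 0 of the 13 were called at any time. The difference between the cell types was called for AHSA1 at 3, 6, 16 and 20 h (-0.81, -1.75, -1.19 and -1.53) and for FKBP5 at 3, 6 and 16 h (1.12, 1.25 and 1.30).

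HSPA8, the constitutive HSP70, had values of 1336 and 1276 in the macrophages at 0 h, 1348 and 1256 at 1 h, 1027 and 1088 at 3 h, 1410 at 6 h, 1592 and 1532 at 16 h and 1288 and 1230 at 20 h. It was lowest at 3 h and highest at 16 h, and the libraries of these times did not overlap those of 0 h. The change was -0.30 (SE 0.05, adjusted p = 0.000719, limma) at 3 h and 0.26 (SE 0.05, adjusted p = 0.00359) at 16 h, and both held without any of their libraries. In the microglia it had values of 1204 and 1162 at 0 h, 1055 and 1078 at 1 h, 1046 and 1092 at 3 h, 1327 and 1367 at 6 h, 1454 and 1356 at 16 h and 1293 and 1220 at 20 h. Here too the mean was lowest at 1 to 3 h and highest at 16 h, with an increase of 0.25 (SE 0.05, adjusted p = 0.0183) that was lost without 0 h replicate 1 (adjusted p = 0.0659), 0 h replicate 2 (0.206) or 16 h replicate 1 (0.281). The difference between the cell types was called at no time.

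HSPA1A, the stress-inducible HSP70, was the lowest of the set, with 1 to 15.5 reads in the macrophage libraries where any were counted and 1.5 to 9.5 in the microglia. Its near-identical neighbour Hspa1b had no row, and whether reads of either gene were counted here was not examined. The promoter windows of both agree at 296 of 300 bases, which does not bear on how reads were assigned. The macrophage values were 13.1 and 8.57 at 0 h, 15.1 and 13.8 at 1 h, 3.12 and 11.1 at 3 h, 1.48 at 6 h, 1 (no read) and 1.19 at 16 h and 4.35 and 4.86 at 20 h. At 16 h 1 read was counted in both libraries together, against 19 at 0 h. This is a ratio of 16.7 with an exact interval of 2.66 to 695.0 at 95% confidence, which covers counting error only. The fitted change at 16 h was -2.47 (SE 0.61, adjusted p = 0.0132, limma), and it was lost without 0 h replicate 1 (adjusted p = 0.0939) or 16 h replicate 1 (0.0642). No change of HSPA1A was called in the microglia, and its change under TGFb1 was not shown to differ between the cell types. At 0 h it was higher in macrophages by 1.44 (SE 0.61), which did not pass the test (adjusted p = 0.0576, limma). That difference was called with a pseudocount of 5 (adjusted p = 0.0428), after quantile normalization (2.25, adjusted p = 0.000524) and without microglia 0 h replicate 2 (0.0151).

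HSPH1, the HSP110 of the cytosol, had values of 137.7 and 108.9 in the macrophages at 0 h, 141.0 and 91.2 at 1 h, 214.0 and 170.9 at 3 h, 201.5 at 6 h, 117.8 and 121.8 at 16 h and 136.8 and 134.9 at 20 h. The 3 libraries of 3 and 6 h lay above all others. The change was 0.64 (SE 0.17, adjusted p = 0.0212, limma) at 3 h and 0.71 (SE 0.21, adjusted p = 0.0336) at 6 h. The first was lost without 0 h replicate 2 (adjusted p = 0.187) or 3 h replicate 1 (0.186), and the second without 0 h replicate 2 (0.17). In microglia HSPH1 was at 137.8 and 176.2 at 0 h, 201.4 and 217.1 at 6 h and 226.0 and 203.4 at 16 h, with changes of 0.42 and 0.46 (SE 0.17 each) that did not pass the test (adjusted p = 0.458 and 0.312). The 3-unit heat shock element of Hsph1 lies past its start, at chr5:149636288-149636300 (minus strand, GRCm38.p6).
Hsph1: TTCtgGAAagTTC

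DNAJB1, an HSP40 that works with HSPA8 and HSPA1A, had values of 120.2 and 116.3 in the macrophages at 0 h, 102.1 and 95.3 at 1 h, 68.6 and 74.9 at 3 h, 106.7 at 6 h, 137.0 and 126.6 at 16 h and 118.2 and 102.1 at 20 h. In the microglia it had 55.9 and 62.1 at 0 h, 63.5 and 58.9 at 1 h, 97.2 and 77.9 at 3 h, 76.4 and 68.1 at 6 h, 62.4 and 49.5 at 16 h and 79.4 and 50.4 at 20 h. At 3 h the macrophages were at their lowest and the microglia at their highest mean. The change in macrophages was -0.71 (SE 0.19, adjusted p = 0.0212, limma), a call lost without any of the 4 libraries (adjusted p = 0.0505 to 0.112). In microglia it was 0.55 (SE 0.19, adjusted p = 0.418). The difference was -1.27 (SE 0.27, adjusted p = 0.0106), lost without the microglia 0 h replicate 1 (adjusted p = 0.0576) or 3 h replicate 1 (0.0742).

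At 0 h, before TGFb1, 3 of the 9 genes were higher in macrophages than in microglia and 0 lower, at a background of 51.1% of all genes called, 21.5% as higher and 29.6% as lower. Besides HSPA5 these were DNAJB1, 1.99-fold higher (log2 0.99, SE 0.19, adjusted p = 0.000246, limma), and HSPA8 (0.14, SE 0.05, adjusted p = 0.0342). The calls of HSPA5 and DNAJB1 held under each library left out and each scaling, though the difference of HSPA5 was 0.72 with libraries scaled to the same total and 0.41 after quantile normalization. That of HSPA8 turned to -0.15 under quantile normalization and was lost without microglia 0 h replicate 1 (adjusted p = 0.0509) or replicate 2 (0.178) or macrophage 0 h replicate 1 (0.197). The HSPA8 call was also lost with libraries scaled to the same total (0.06, adjusted p = 0.378, limma). It was lost as well without the variance trend (adjusted p = 0.275) and with only the groups compared in the fit (0.0784). Scaling shifted this comparison: the median of all genes was -0.21 with libraries scaled to the same total and 0.03 after quantile normalization. Under both, HSPH1 (-0.43 and -0.41) and HSP90AA1 (-0.31 and -0.48) were called lower in macrophages, and after quantile normalization HSPA1A was called higher (2.25) and HSP90AB1 lower (-0.31). The small heat shock proteins, which hold unfolded proteins without ATP, were lower in macrophages at 0 h for 4 of 5 measured, where 29.6% of all genes were. HSPB8 had values of 55.1 and 87.2 in the microglia and was at the no-read value in all 11 macrophage libraries, and it rose in microglia by 1.37 (SE 0.32, adjusted p = 0.024) at 16 h and 1.86 (SE 0.32, adjusted p = 0.00172) at 20 h. CRYAB, which astrocytes and oligodendrocytes also express, was at 17.6 and 23.9 in the microglia. Astrocyte markers (6 of 6 measured) held 0.0102 to 0.0120% of the signal of the microglia cultures and 0.000856 to 0.00242% of that of the macrophages, and their part in these values was not tested.

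**Figure D4:**
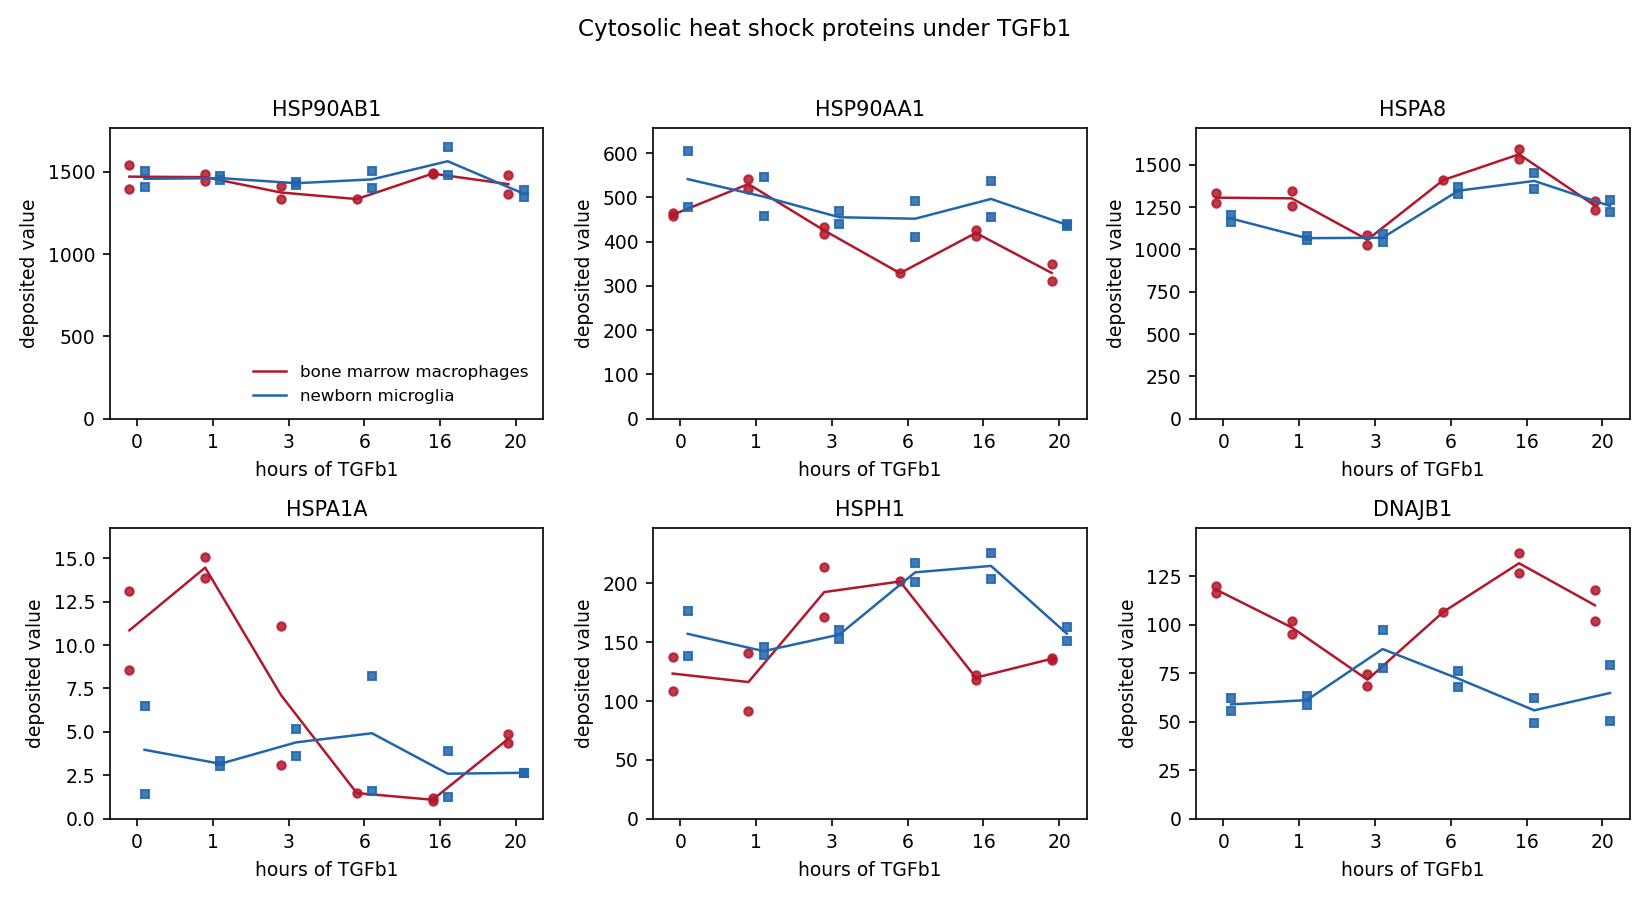
Deposited values (linear, from 0, with a scale per panel) of HSP90AB1, HSP90AA1, HSPA8, HSPA1A, HSPH1 and DNAJB1 by hours of TGFb1, with a point per library and a line through the means; circles are macrophages and squares are microglia. DNAJB1 in the macrophages is at 68.6 and 74.9 at 3 h and above 95 at all other times, and HSP90AB1 stays between 1333 and 1651 in all 23 libraries.

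Of 23 J proteins, 1, 1, 2 and 2 were called in macrophages at 3, 6, 16 and 20 h, a share at or below that of all genes. DNAJA1, a partner of HSPA8, was the one called at 3 h (higher by 0.78, SE 0.19, adjusted p = 0.0102, limma), at the time when DNAJB1 was lower. The chaperonin TRiC, which folds actin and tubulin, and its helper prefoldin had 13 measured subunits, of which 1, 2, 1 and 2 were called in macrophages at these times, a share near that of all genes. There 2 of them, CCT3 and CCT8, were higher at 6 h (0.39 and 0.32), and 2, CCT6A and CCT2, were lower at 20 h (-0.56 and -0.35). None of the 13 was called in microglia at any time, and none of the 3 measured heat shock factors was called under TGFb1 in either cell type.

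The genes most like each member over the 23 culture libraries were found by Pearson r among the same 10371 genes. For HSPD1 these were OSBPL8 (0.886), MYO1E (0.876) and YWHAE (0.869), and for HSPE1 CBL (0.875), 5730469M10RIK (0.865) and IQCK (0.861). For DNAJB1 they were SLCO4A1 (0.876), ATAD2 (0.873) and FBXO33 (0.870), and for HSP90AA1 PLEK (0.853), ATPIF1 (0.794) and PLIN2 (0.779). For HSPA8 they were UFSP2 (0.735), PLEKHF2 (0.721) and MANF (0.701), and for HSP90AB1 SEPHS1 (0.680), CUL1 (0.669) and SOS2 (0.663). Within the 11 macrophage libraries HSPA8 and DNAJB1 had an r of 0.906, and HSPA5 and HSPH1 one of -0.817. Libraries of the same time and cell type share their culture conditions, so these values are descriptions only.

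These culture tests use a spread shared by all 23 libraries. When only the groups compared entered the fit, so that 2 libraries stood against 2 or 1, none of the 14 macrophage calls, 2 of the 4 microglia calls, 4 of the 6 calls of a difference in change and 2 of the 3 at 0 h were left.

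In the injured cord, none of the 7 measured genes was called in microglia at any time after injury against time 0, in 35 tests, at backgrounds of 0.073, 0.694, 0.913, 0.0 and 0.438% of all genes at 1 h, 16 h, day 1, day 3 and day 7. No member had an unadjusted p under 0.05 but for HSP90AB1 at 16 h. These libraries are shallow, and the median SE of a log2 change was 0.82. With an SE of 0.41 or more for each of these genes, changes of the size seen for them in culture would hardly pass the test. The parts of depth, few libraries per group and neutrophil signal in this spread were not tested. In bulk RNA of sorted cells, fewer cells of a type and less RNA per cell cannot be told apart.

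HSP90AB1 had values of 87.4, 95.3 and 101.2 in the microglia at time 0, 42.6 and 123.7 at 1 h, 41.8 and 56.7 at 16 h, 88.2 and 82.9 at day 1, 91.2 and 90.4 at day 3 and 100.9 and 92.7 at day 7. Both libraries of 16 h lay below all of time 0 and of day 1 to day 7. The change at 16 h was -0.94 (SE 0.41, adjusted p = 0.379, limma). In the monocytes it had 47.5 and 32.4 at 16 h, 75.5 and 68.0 at day 1, 82.3 and 101.3 at day 3 and 189.6 and 121.9 at day 7. The libraries of each time lay above those of the time before.

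The increase of HSP90AB1 in monocytes at day 7 against 16 h was 3.80-fold (log2 1.93, SE 0.45, adjusted p = 0.0407, limma), the only call among the 21 tests in these cells; 0, 0 and 1 of 7 genes were called at day 1, day 3 and day 7 at backgrounds of 0.0, 0.17 and 0.596% of all genes, with 0.0852% called higher at day 7. After quantile normalization increases were 29.6% of the day 7 calls over all genes, in place of 14.3%. At an unadjusted p under 0.05, limma had 0 of 7 genes at day 1 and 1, HSP90AB1, at day 3. It was lost without any of the 4 libraries: 16 h replicate 1 (adjusted p = 0.139), 16 h replicate 2 (0.956), day 7 replicate 1 (0.67) or day 7 replicate 2 (0.133). Along with it, the estimated reads went from 731692 and 546270 at 16 h to 133911 and 154256 at day 7, and the share of 10 measured microglia markers from 0.195 and 0.205% to 0.574 and 0.652%; their part in the result was not tested. The change of monocytes from 16 h to day 7 was not shown to differ from that of microglia (difference 0.95, SE 0.64, adjusted p = 0.9), a comparison in which 0 of 7 members and 0.0122% of all genes were called.

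HSP90AA1 did not pass the test in either cell type. In monocytes it had values of 12.6 and 11.3 at 16 h, 22.6 and 14.96 at day 1, 17.6 and 25.0 at day 3 and 37.1 and 33.9 at day 7 (log2 1.497, SE 0.73, adjusted p = 0.784, limma; with array weights it was called, adjusted p = 0.0371). In microglia it had 7.19, 9.44 and 32.3 at time 0, 8.95 and 11.03 at 1 h, 12.3 and 15.7 at 16 h, 15.8 and 17.7 at day 1, 31.4 and 24.8 at day 3 and 38.2 and 24.9 at day 7 (log2 1.17, SE 0.67, adjusted p = 0.408). The library of time 0 at 32.3 is among the 3 with fewer than 35000 estimated reads. Without those 3, a choice made after seeing the data, the day 7 change was 2.09. It then rested on day 7 replicate 1 alone, with 10.2 reads of HSP90AA1, against 2.17 and 3.33 reads in time 0 replicates 1 and 2.

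HSPA8 had values of 105.8 and 106.3 in the monocytes at 16 h, 92.9 and 143.2 at day 1, 124.5 and 155.2 at day 3 and 120.4 and 88.2 at day 7. In the microglia of the same times it had 63.6 and 81.0, 87.9 and 71.1, 96.02 and 47.8, and 48.4 and 49.98. At each of the 4 times both monocyte libraries lay above both of the microglia. Averaged over these times it was 1.73-fold higher in monocytes (log2 0.79, SE 0.23, adjusted p = 0.0277, limma), the only call among 7 members at a background of 7.57% of all genes (3.97% higher). Scaled to the same total, increases were 70.8% of the calls over all genes, in place of 52.4%, and the median of all genes was 0.20, in place of 0.05. The call held under 7 of the 16 libraries left out in turn and was lost under the other 9 (adjusted p = 0.0504 to 0.0992). These were the microglia 16 h replicate 1, day 1 replicate 2 and day 3 replicate 2, and the monocyte 16 h replicates 1 and 2, day 1 replicate 2, day 3 replicates 1 and 2 and day 7 replicate 1. The share of neutrophil markers, 4.38 to 16.9% in the microglia libraries of these times against 0.104 to 0.535% in the monocytes, moved with this comparison, and its part in it was not tested.

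HSPA5 had values of 82.5 and 95.4 in the monocytes at 16 h, 70.8 and 112.5 at day 1, 133.0 and 145.4 at day 3 and 140.2 and 90.8 at day 7. In the microglia it had 33.2, 59.45 and 60.7 at time 0, 17.9 and 68.7 at 1 h, 55.9 and 50.4 at 16 h, 99.0 and 85.2 at day 1, 44.0 and 96.5 at day 3 and 97.8 and 78.9 at day 7. The libraries of day 1 and day 7 lay above those of time 0, and the changes of 0.88 and 0.82 (SE 0.48 each) did not pass the test (adjusted p = 0.455 and 0.417, limma). Monocytes against microglia differed by 0.53 (SE 0.26, adjusted p = 0.235).

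Of the list of 22 measured endoplasmic reticulum genes, only XBP1, a transcription factor of the unfolded protein response, was called in microglia against time 0. It was called at 16 h and day 1, where 0.694 and 0.913% of all genes were. Its level was 17.0 to 37.4 at time 0, 92.8 and 179.9 at 16 h and 125.6 and 165.8 at day 1, and it was at 48.2 and 49.3 at day 3. The changes were 2.18 (SE 0.46, adjusted p = 0.0215, limma) at 16 h and 2.34 (SE 0.46, adjusted p = 0.00765) at day 1. The call at 16 h was lost without 16 h replicate 2 (adjusted p = 0.528) or time 0 replicate 2 (0.0682), and that at day 1 without day 1 replicate 2 (0.16). Both were lost without the variance trend (0.101 and 0.0567) and with only the groups compared in the fit (0.274 and 0.186). Neutrophil markers held 16.1 to 22.2% of the signal at time 0, 11.4 and 15.03% at 16 h and 7.92 and 10.7% at day 1, and 18 immediate early genes 0.625 to 1.13%, 0.973 and 1.497%, and 1.72 and 1.92%. Erythroid markers held 0.346% in 16 h replicate 2 and 0.440% in day 1 replicate 2, and at most 0.0107% in the libraries of time 0. Without the 4 libraries of over 0.1% erythroid signal, a choice made after seeing the data, the XBP1 changes were 1.71 at 16 h and 2.14 at day 1. Each of these then rested on 1 library of its time, so only the size is given and neither call is taken to hold. The part of the neutrophil, immediate early and erythroid signal itself in the XBP1 values was not tested. In monocytes XBP1 was at 123.2 and 136.4 at 16 h and at 41.3 and 53.5 at day 7. Monocytes exceeded microglia for 4 of the 22 and fell below for 0, where 7.57% of all genes were called, 3.97% as higher. The largest were CRELD2 (1.63, SE 0.46), PDIA6 (1.42, SE 0.36) and P4HB (1.00, SE 0.29), with a list median of 0.50 against 0.05 for all genes. BAG3 (1.62, SE 0.47, adjusted p = 0.0306, limma), a partner of HSP70 in stressed cells, was also higher in monocytes. So were HSPBP1 (1.61, SE 0.46, adjusted p = 0.0272, limma) and HSPA4 (1.56, SE 0.48, adjusted p = 0.0416, limma), both of which exchange its nucleotide. The neutrophil signal of the microglia libraries and the shift with scaling, given above for HSPA8, belong to the same comparison. Their part in these differences was not tested.

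DNAJB1, HSPD1 and HSPE1 were at the no-read value in 4, 3 and 2 of the 13 microglia libraries and in none of the monocytes. The microglia libraries were shallower. Their highest estimated reads for these genes were 20, 15 and 9.25, against 51, 49.8 and 47 in the monocytes. DNAJB1 ran from 1 to 19.8 in the microglia and from 3.30 to 12.02 in the monocytes. HSPD1 ran from 0.708 to 14.8 in the microglia and from 1.43 to 9.55 in the monocytes, and HSPE1 from 1 to 9.14 and from 3.63 to 9.36. In monocytes HSPD1 differed from 16 h by 1.72 at day 1 and 1.61 at day 3 (SE 0.94 each), neither called (adjusted p = 1, limma), while with array weights the day 3 change was called (adjusted p = 0.0356).

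**Figure D5:**
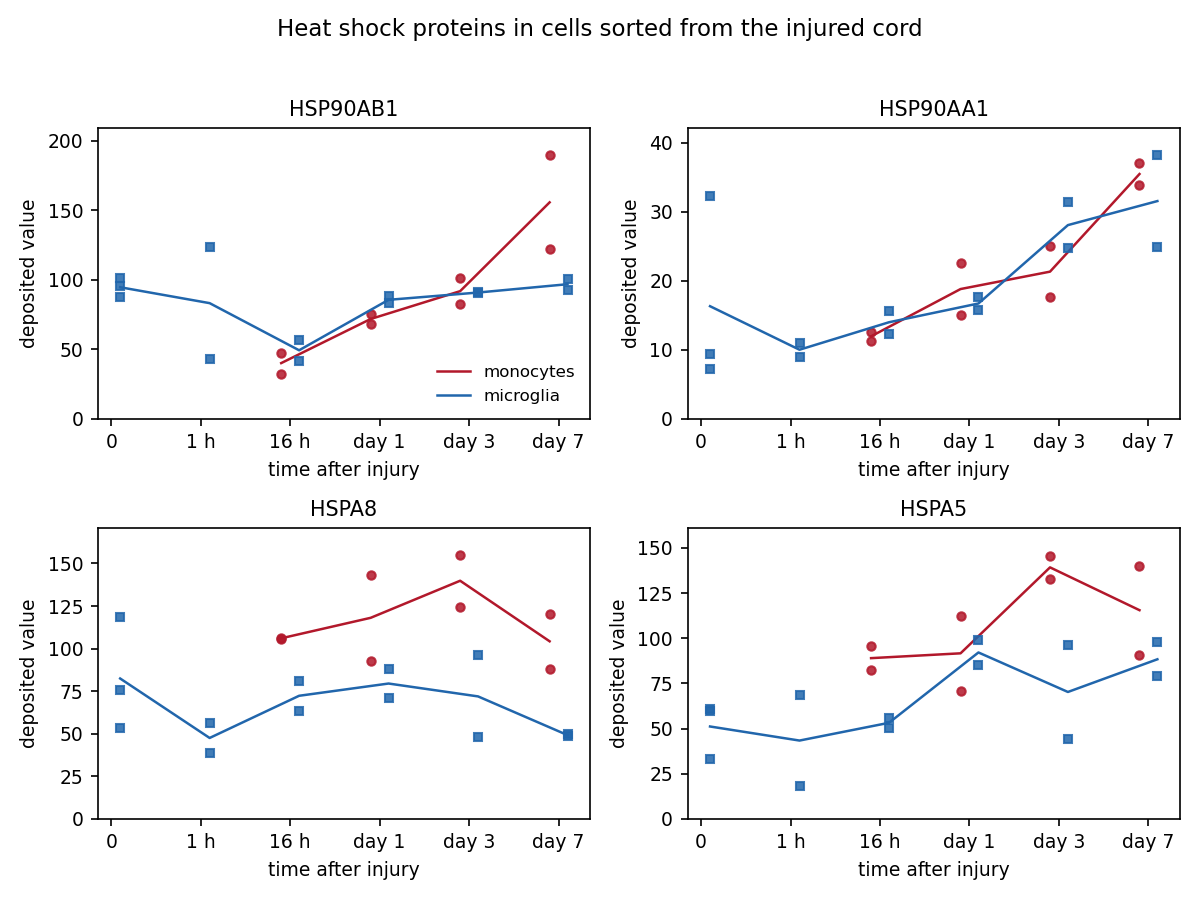
Deposited values (linear, from 0, with a scale per panel) of HSP90AB1, HSP90AA1, HSPA8 and HSPA5 by time after injury, with a point per library and a line through the means; circles are monocytes and squares are microglia. HSP90AB1 climbs in the monocytes from 47.5 and 32.4 at 16 h to 189.6 and 121.9 at day 7, and HSPA8 is higher in the monocytes than in the microglia at each shared time.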

How the data were processed

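The deposited tables hold a signal per gene and library, scaled by the authors in a way that no source here describes; the counter and the annotation are likewise not stated. The submitters' processing notes name TopHat as aligner and mm9 as build. In each library 86.6 to 90.7% of the low values were whole multiples of a step (within 0.05 steps), taken as 1 read to estimate depth. This is too few to recover counts, so the planned count model was replaced by the plan's test for normalized values. Tables were scaled separately, and levels were compared only within a table. The nameless row (at most 0.0165% of a library) was left out.

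The log2(value + 1) of each gene went into limma 3.58.1 (R 4.3.3), with a coefficient per group, a spread shared by all libraries of the table, and empirical Bayes moderation with a trend and robust fitting. The filter, a value of 1 or more in 2 libraries, was passed by every gene. Because a value of 1 also stands for no read, it could remove almost nothing and was no check on expression. The pseudocount understates changes of low genes. The fits were tested on simulated data. The time tag of microglia 1 h replicate 2 reads 2 h; its title, 1 h, was used. A group reduced to 1 library by a left-out replicate was assumed to vary like the rest. From each other list, at most 3 called genes per direction with the largest change were named (with none called, at most 2 with the smallest p), and per member the 3 genes with the highest Pearson r. The members and lists were chosen with earlier results of these data known. Alternatives were another pseudocount, filter, scaling, quantile normalization, spread model and set of libraries, and a replicate block. Promoters are from RefSeq (GRCm38.p6), matched by symbol for 7 of 10 members.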

Additional observations from a re-analysis of the deposited data

Results flagged for a closer look

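All 6 results below were picked out because the change under TGFb1 differed between cultured macrophages and cultured microglia in a test of that difference (limma, adjusted p under 0.05, macrophage change minus microglia change on the log2 scale). For HSPA5 the difference was -0.47 at 3 h, -0.94 at 6 h, -0.52 at 16 h and -0.32 at 20 h. For DNAJB1 it was -1.27 at 3 h, and for HSPD1 it was -0.83 at 20 h. The microglia cultures held 1.22 to 1.58% of their signal in microglia markers and the macrophages 0.535 to 0.727%, and the cell types were grown in different ways, per the labels. The value at 6 h rests on 1 macrophage library. No group had more than 3 libraries, so none could be searched for a library that stands apart.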

How the results depend on the processing

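Of the 29 calls of members, 12 held without any of the libraries that could be left out in turn and 4 were lost without each of them. Under every other setting tried, 6 held. The only macrophage library of 6 h could not be left out of the calls that use it. Without the variance trend, member calls numbered 6 in place of 14 in macrophages, 1 in place of 4 in cultured microglia, 3 in place of 6 for the difference between the cultures, and 0 in place of 1 both for monocytes against 16 h and for monocytes against microglia. With only the groups compared in the fit they numbered 0 in macrophages, 2 in cultured microglia and 0 in monocytes against 16 h. Array weights gave 4 calls in monocytes against 16 h, and quantile normalization 7 in place of 3 between the cultures at 0 h. There HSPA8 turned to -0.15, HSP90AB1 to -0.31 and HSP90B1 to -0.0456, and CALR in macrophages at 20 h came to 0.00. With a library left out, counted over the comparisons it enters, calls ran from 0 to 9 in macrophages, 0 to 2 in cultured microglia, 0 to 5 for the difference, 0 to 1 for monocytes against microglia and 0 to 0 for monocytes against 16 h. Without the 3 libraries under 35000 reads, in vivo microglia had 1 call in place of 0 and monocytes against microglia 2. Without the 4 libraries of over 0.1% erythroid signal the latter had 0. Both were chosen after seeing the data, and each left only 1 library in some of the groups compared. The cause of these shifts was not tested. Libraries were also matched by replicate number in vivo and by the letter a or b of their data column in culture. Their deviations from the group means did not go together (correlations of -0.0477 to 0.0645, none over 0.1). This gave no sign of pairing, but with so few libraries per group it cannot exclude it. With the replicate block, macrophages had 13 calls, cultured microglia 4, the difference 7 and the cultures at 0 h 3, and monocytes had 1 against 16 h and 1 against microglia. The lowest estimated depth was that of the in vivo microglia, at 31459 to 187973 reads per library.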
